A study of Mus musculus with 2 samples.

Results

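Rab proteins are the largest branch of the Ras superfamily of small GTPases, and each marks a particular membrane of the cell. A Rab is held inactive in the cytosol by a GDP dissociation inhibitor, is switched on at its membrane by an exchange factor, recruits effectors such as tethers and motors while bound to GTP, and is switched off by a GTPase-activating protein. Its C terminus carries geranylgeranyl lipids, added by Rab geranylgeranyl transferase with the help of an escort protein, which allow it to sit in the membrane. In pluripotent cells, as in other dividing cells, the Rabs of the Golgi and endosomes run housekeeping traffic, whereas several family members are known mainly from neurons, pigment cells, blood cells or polarised epithelium.

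The members were the array's Rab genes, taken by gene symbol alone: Rab followed by a number and, where present, a letter or a further digit, so that Rab interacting and activating proteins stayed out. This gave 50 genes on 95 probe sets, of 12393 genes and 22690 probe sets in all. RefSeq lists 59 protein-coding mouse genes whose names have this form, and all 50 symbols matched RefSeq through their Entrez IDs.

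Transcripts were profiled in mouse iPSCs (induced pluripotent stem cells, made by reprogramming somatic cells), with 1 array for a sample labelled hybridized and 1 array for a sample labelled live. Both samples carry the same source label and came from embryonic stem cell medium with serum and 2i, a pair of kinase inhibitors that supports naive pluripotency; the labels give no line, clone, strain, passage or probe used for the hybridization. With 1 array per group there is no replicate error, no test and no p-value, and precision is limited by the number of arrays. Values are log2 GCRMA signals, given as hybridized and then live, and every difference is the hybridized value minus the live value. The question the design poses is how far the transcript levels read from hybridized cells resemble those of live cells. In bulk RNA, fewer cells of a type and less RNA per cell cannot be told apart.

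The labelled cell type was supported by its markers on both arrays: all 8 pluripotency markers checked lay above 10 in both samples and within 2-fold of each other, from Pou5f1 (10.83 hybridized, 11.53 live) to Nanog (13.17 hybridized, 13.03 live). All 5 endoderm markers and 6 of 8 fibroblast markers were under a mean of 5, the level limit used here for a gene to be compared. Fn1 (-0.53) and Col1a1 (-1.71) were above it. Of 4 trophectoderm markers, Krt8 (-1.48), Krt18 (0.71) and Eomes (-0.08) were above it and Cdx2 (3.55 hybridized, 2.74 live) was under it. The part of fibroblast or trophectoderm cells in the results below was not tested. The 7262 genes at the level had a median of -0.17; 8.43% of them were 2-fold or more above the live value, 15.4% 2-fold or more below it and 23.8% at least 2-fold apart in either direction. The 18 hybridization control probe sets differed by between -1.22 and -0.15, with a median of -0.80. The array's control probe sets also showed a larger 5′ share of signal in the hybridized sample: the 5′ minus 3′ value was -0.50 against -3.02 for Actb, -0.12 against -1.93 for Gapdh and -3.23 against -3.73 for Tfrc.

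Of the 50 Rab genes, 35 reached the level, and their differences were spread about as widely as those of other genes. The median was -0.15 and the SD over genes 0.82, against -0.17 and 0.86 for all genes at the level. Rab13 alone was at least 2-fold higher (2.86%, beside 8.43% of all genes), and 7 were at least 2-fold lower (20%, beside 15.4%). These are Rab1b, Rab2b, Rab4a, Rab4b, Rab21, Rab34 and Rab40c. Together 22.9% of the Rab genes were 2-fold apart, near the 23.8% of all genes, and 17 lay within 1.5-fold (48.6%, all genes 52.7%). The balance of directions rested on the centring. As deposited, 12 Rab genes were above 0 and 23 below, beside 2981 and 4248 of all genes. The Rab counts were 19 and 16 when the median gene was set to 0, and 26 and 8 when the hybridization controls were set to 0. With those controls at 0, the median of all genes was 0.63. On that last scale 9 Rab genes were 2-fold higher and 1, Rab40c, was 2-fold lower, while a loess correction for signal level gave 3 higher and 5 lower. On the scale of those controls the 7 lower genes ran from -1.30 for Rab40c to -0.25 for Rab2b. Their place below 0 was fixed in advance, since they were picked at -1 or below and the constant shift is smaller than 1.

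**Figure D1:**
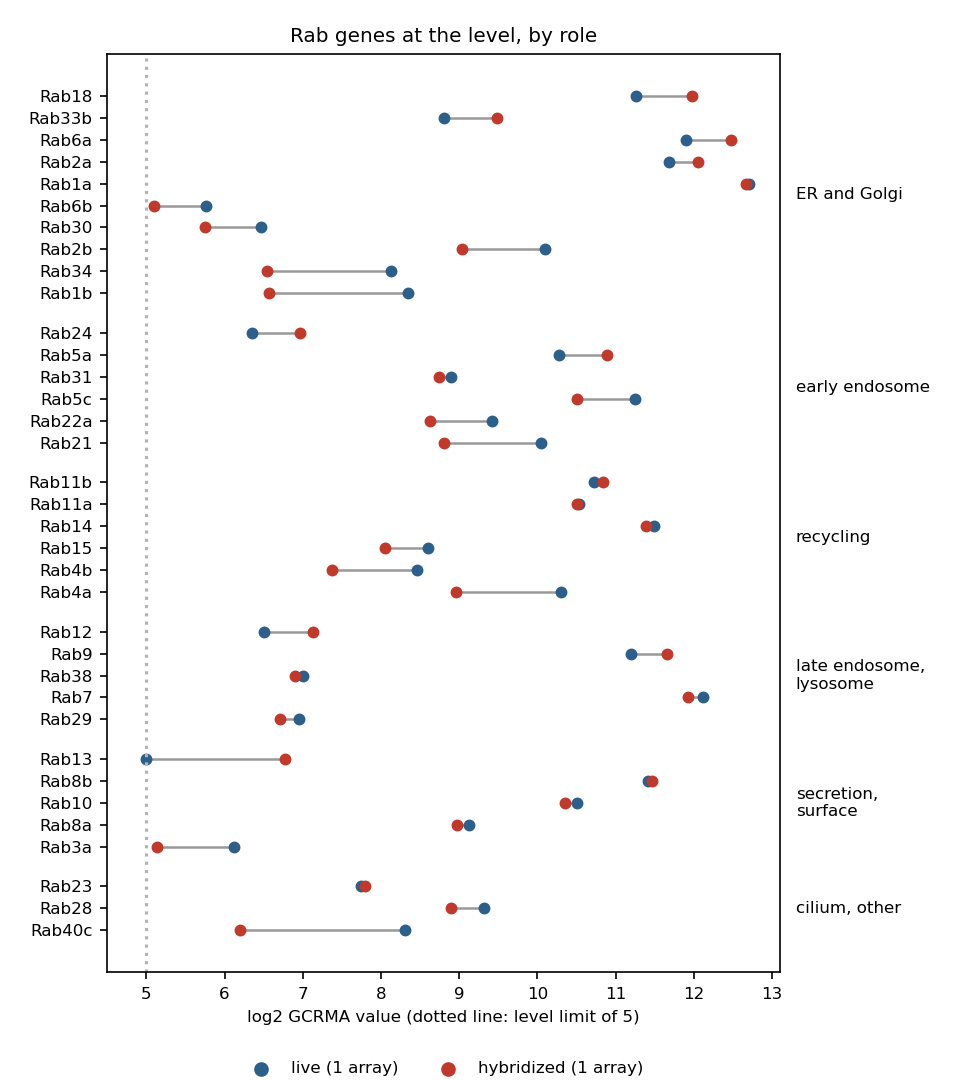
Log2 GCRMA value (horizontal axis) of each of the 35 Rab genes at the level, grouped by role, in the live sample (blue) and the hybridized sample (red), 1 array each; the dotted line is the level limit of 5. Rab13 has its red point furthest to the right of the blue one, and Rab40c, Rab1b and Rab34 have theirs furthest to the left, as deposited; centring on the hybridization controls moves every red point up by 0.80.

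Rabs of the endoplasmic reticulum and Golgi made up 10 of the genes at the level, of 12 on the array, with a median of -0.355 (all genes -0.17). Of these 10, 0 were at least 2-fold higher (all genes 8.43%) and 3 lower (30%, all genes 15.4%). Each role holds few genes, and no difference between a role and all genes was tested. Within each of 3 paralogue pairs, one form was near or above its live value and the other was below it, as deposited. Rab1a, which with Rab1b directs traffic from the endoplasmic reticulum to the Golgi, read 12.66 hybridized and 12.71 live. Rab1b read 6.57 hybridized and 8.35 live, a difference of -1.78 or 3.43-fold, on its only probe set. Rab2a, a Golgi and pre-Golgi Rab, read 12.05 and 11.68, whereas its paralogue Rab2b read 9.04 and 10.09, a difference of -1.05. Rab6a, which acts in retrograde traffic through the Golgi, read 12.47 and 11.90, and Rab6b, the form known from neurons, read 5.10 and 5.76. Each of these 3 pairs had its second form further below the live value than its first. Other a and b pairs at the level ran the other way: Rab4 (-1.34 and -1.09), Rab8 (-0.16 and 0.05) and Rab11 (-0.03 and 0.12). After a loess correction for signal level, Rab1b was at -1.42, Rab2b at -0.97 and Rab6b at -0.15. Averaged over its probe sets, Rab2b was at 0.03. Values of different probe sets are not on a common scale of abundance, so no level is compared between paralogues.

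Rab18, found at lipid droplets and the endoplasmic reticulum, was 0.71 higher with 11.97 in the hybridized sample, the largest upward difference of the group. Rab33b, a Golgi Rab that binds the autophagy protein Atg16l1, read 9.48 and 8.81. Rab30, also of the Golgi, read 5.75 and 6.46. Rab34, a Golgi Rab required for building cilia in many cells, read 6.54 hybridized and 8.13 live, 3.01-fold apart, and was lower on both of its probe sets.

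The stretches of 120 bases just upstream of the start sites of Rab1a and Rab1b are shown because the pair shares a role and its 2 members had unlike differences, beside those of Rab13 and Rab40c, the members with the highest and the lowest difference. Sequences are from RefSeq (GRCm38.p6), read 5′ to 3′ on the gene's strand, and end at the base before the annotated start. Capitals mark GC boxes (GGGCGG) and CCAAT boxes (CCAAT) on either strand; E-boxes (CACGTG) and TATA elements (TATAAA) were searched as well and were not found in these windows. The motifs share no stretch with one another in the windows shown.
Rab1a, chr11:20201292-20201411, plus strand: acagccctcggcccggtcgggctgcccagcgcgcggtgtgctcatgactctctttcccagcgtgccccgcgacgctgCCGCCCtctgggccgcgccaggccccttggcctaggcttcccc
Rab1b, chr19:5106997-5107116, minus strand: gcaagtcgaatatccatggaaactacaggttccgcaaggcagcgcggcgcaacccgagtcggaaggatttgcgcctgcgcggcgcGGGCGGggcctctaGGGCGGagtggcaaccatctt
Rab13, first start, chr3:90213595-90213714, plus strand: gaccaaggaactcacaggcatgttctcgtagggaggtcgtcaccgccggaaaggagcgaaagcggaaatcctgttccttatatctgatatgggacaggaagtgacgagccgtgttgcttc
Rab13, other start, chr3:90220664-90220783, plus strand: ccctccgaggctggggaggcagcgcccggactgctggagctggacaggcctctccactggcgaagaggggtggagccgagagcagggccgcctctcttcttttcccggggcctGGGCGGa
Rab40c, chr17:25919715-25919834, minus strand: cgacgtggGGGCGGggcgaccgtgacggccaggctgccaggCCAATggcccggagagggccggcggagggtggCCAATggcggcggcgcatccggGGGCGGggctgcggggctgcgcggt

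Rab1a had 1 GC box in this stretch and 13 CpG dinucleotides, and Rab1b had 2 GC boxes and 14 CpG. Rab40c had 2 GC boxes, 2 CCAAT boxes and 17 CpG, while neither Rab13 stretch held a CCAAT box. Over the whole 250 upstream bases, the 38 promoters of the 30 Rab genes at the level with an entry had a median of 20 CpG dinucleotides, those of the 12 Rab genes under it 9.5, the promoters of all genes at the level 16, and the full set of 32851 promoters a median of 6. A GC box was present in 68.4% of the promoters of Rab genes at the level, 60.7% of those of all genes at the level and 32.7% of all promoters. CCAAT boxes were present in 47.4%, 35.9% and 33.8%, E-boxes in 7.89%, 8.79% and 6.02%, and TATA elements in 2.63%, 5.94% and 12.4%. These matches are a description of the letters. Promoters of Rab genes 2-fold lower were 7, of 6 genes, since Rab4a had no entry. They had a median of 23 CpG, and 6 of the 7 held a GC box (85.7%, beside 68.4% and 60.7% above). No link between these letters and the differences was tested.

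Of 8 early endosome Rabs on the array, 6 were at the level, with a median of -0.45 (all genes -0.17). Among the 6, 0 were at least 2-fold higher (all genes 8.43%) and 1 was lower (16.7%, all genes 15.4%). The Rab5 paralogues, which drive fusion of early endosomes, had unlike differences. Rab5a read 10.89 hybridized and 10.28 live, while Rab5c read 10.50 and 11.25, so that neither was 2-fold apart as deposited. Centred on the hybridization controls, Rab5a was at 1.41 and Rab5c at 0.05. Rab5b was under the level, at 4.07 and 3.45, and so was not compared. Rab21, which carries integrins inward from the surface, read 8.81 and 10.04, the only early endosome Rab at least 2-fold lower. Rab22a, which sorts cargo from early endosomes back to the surface, was 0.80 lower in the hybridized sample (8.62 and 9.42), and centring on the hybridization controls puts it at about the live value. Rab31, of the route between the Golgi and endosomes, read 8.74 and 8.89, and Rab24, linked to autophagy, 6.96 and 6.35.

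Among recycling endosome Rabs, the Rab4 pair was lower in the hybridized sample and the Rab11 pair was nearly equal in both. Rab4a, which works in the fast return of receptors to the surface, read 8.96 and 10.30, a difference of -1.34 or 2.53-fold. Rab4b read 7.37 and 8.46, a difference of -1.09. Rab11a, the marker of the slow recycling compartment, read 10.50 and 10.53, and Rab11b 10.84 and 10.72. The Rab4 genes thus stood 2-fold apart on their brightest probe sets, and each Rab11 gene was within 0.12 of its own live value. Rab14, of the Golgi and endosomes, read 11.39 and 11.49 on its brightest probe set, and Rab15, an endosomal Rab, read 8.05 and 8.60. In all, 6 of 8 recycling Rabs were at the level, with a median of -0.325 (all genes -0.17). Of these, 2 were at least 2-fold lower (33.3%, all genes 15.4%) and 0 higher (all genes 8.43%).

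Late endosome and lysosome Rabs had the narrowest spread, with all 5 at the level within 2-fold and a median of -0.10 (all genes -0.17). Of the 5, 4 were within 1.5-fold (80%, all genes 52.7%). Rab7, the late endosome Rab that leads to fusion with lysosomes, read 11.92 and 12.11. Rab9, which returns cargo from late endosomes to the Golgi, read 11.66 and 11.19. Rab12, which acts in the delivery of receptors for degradation, read 7.13 and 6.51. Rab38, best known from melanosomes, read 6.90 and 7.0, and Rab29, which recruits the kinase Lrrk2 to membranes, 6.71 and 6.95. Rab7 and Rab9 lay at means of 11 and above, and Rab12, Rab29 and Rab38 between 5 and 7. Over all roles, 0 of the 8 Rab genes at 11 and above were 2-fold apart, beside 6.31% of all genes there. The same held for 3 of 12 between 9 and 11 (all genes 19.7%), 4 of 7 between 7 and 9 (all genes 33.1%) and 1 of 8 between 5 and 7 (all genes 36.2%).

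Of 11 Rabs of secretion and surface delivery, 5 were at the level, and this group held the only member at least 2-fold higher (20% of the 5, all genes 8.43%). Rab13, which delivers proteins to tight junctions of epithelial cells, read 6.77 hybridized and 4.99 live, a difference of 1.78 or 3.43-fold at percentile 98.1 of all genes at the level. It was measured on 1 probe set, and its live value was just under the limit. Rab8a (8.97 and 9.13) and Rab8b (11.46 and 11.41), which carry cargo to the surface and to cilia, and Rab10 (10.35 and 10.50), which carries cargo to the plasma membrane, differed little. Rab3a, the Rab of synaptic vesicles, read 5.14 and 6.12, just short of 2-fold lower at -0.98. On either side of the 2-fold limit, Rab2b, Rab4b and Rab21 were the nearest members inside it and Rab3a, Rab22a (-0.80) and Rab5c (-0.75) the nearest outside.

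Among the remaining genes Rab40c was furthest from 0 of all 35 as deposited. Rab13 was further after loess, with the median gene at 0 and with the hybridization controls at 0, and Rab34 when probe sets were averaged. Rab18 was further, at 2.89, when probe sets ending in _x_at, _s_at or _a_at were left out. Rab40c, a Rab with a SOCS box that joins a Cullin ubiquitin ligase, read 6.20 hybridized and 8.30 live, a difference of -2.10 or 4.29-fold, at percentile 1.1 of all genes. Rab23, which restrains Hedgehog signalling, read 7.79 and 7.75. Rab28, a divergent Rab of cilia, read 8.90 and 9.31.

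The 15 Rab genes under the level were Rab3b, Rab3c, Rab3d, Rab5b, Rab7b, Rab17, Rab20, Rab25, Rab27a, Rab27b, Rab32, Rab33a, Rab37, Rab40b and Rab43. Their brightest probe sets read from 2.08 (Rab27b, live) to 5.01 (Rab17, live), and the differences from -0.67 for Rab43 to 0.62 for Rab5b. Many of them are known from specialised secretion: the Rab3 forms from neurons and glands, Rab27a and Rab27b from pigment granules and blood cells, Rab32 from melanosomes, and Rab17 and Rab25 from epithelium. No detection call was used here, so a low value does not show that a transcript was absent.

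**Figure D2:**
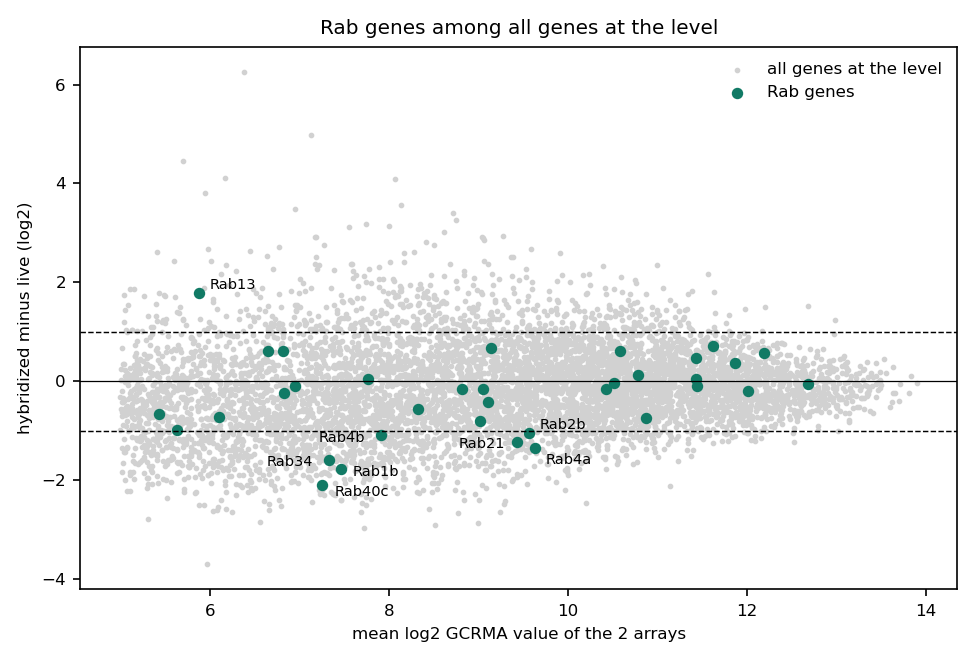
Difference between the hybridized and the live array (log2, vertical axis) against the mean log2 GCRMA value of both arrays (horizontal axis) for 7262 genes at the level (grey) and the 35 Rab genes (green); dashed lines mark 2-fold. The 8 named Rab genes lie beyond the dashed lines, all at means under 10, and 7 of them on the lower side as deposited.

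Probe sets of the same Rab gene often disagreed. Their gaps describe the spread within these arrays and cover no variation between preparations. For 14 Rab genes a second probe set reached the level, and the size of the gap between the differences on the brightest and the next had a median of 0.85, against 0.60 over 2720 genes. The sign was the same for 9 of the 14 Rab genes and for 63.7% of all such genes. Of the 4 Rab genes that were 2-fold apart on the brightest probe set and had a second, 1 repeated it (25%, all genes 36.1%). That gene was Rab34, which read 5.36 hybridized and 8.14 live on the other, a difference of -2.78. Rab4a differed by only -0.17 on its other probe set (9.15 and 9.32). Rab2b was lower by smaller amounts on its others at the level, at -0.64 and -0.42. Rab21 was higher on its other probe set (8.27 and 7.51), so its direction was not shared by its probe sets.

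The dimmer probe sets leaned the other way from the brightest ones, in Rab genes and across the array. Of 23 other probe sets of Rab genes at the level, 5 were 2-fold or more above the live value (21.7%) and 1 was lower (4.35%). Of all 4145 such probe sets, 21.3% were 2-fold higher and 8.37% lower, whereas on the brightest probe sets of the same 2720 genes 8.42% were higher and 11.6% lower. The Rab shares were therefore near the background of these arrays. The 5 belonged to Rab18, Rab28, Rab14, Rab2a and Rab10. Rab18 read 6.97 hybridized and 4.08 live on its dimmer probe set, a difference of 2.89, and Rab28 read 7.04 and 4.42, a difference of 2.62, although it was 0.41 lower on its brightest.

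Rab14 had 5 probe sets at the level. Beside 11.39 and 11.49 on the brightest, it read 12.15 hybridized and 10.10 live on the next, 9.84 and 8.87 on another, and exactly 9.70 in both samples on yet another. The dimmest of them read 4.91 and 5.11, so the differences ran from -0.20 to 2.05. Rab2a spanned -0.49 to 1.70 over 6 probe sets, 4 of them above 0, and Rab10 -0.34 to 1.36 over 3. Rab1a was 0.99 higher on its second probe set (12.60 and 11.61), just short of 2-fold. By contrast the probe sets of Rab24, Rab11a and Rab7 lay within 0.18 of each other. The 5′ share of control signal, given above, also differed between the arrays; the positions of the Rab probe sets along their transcripts were not used here, and the part of probe position in these gaps was not tested. Averaged over all probe sets, including those under the level, 4 Rab genes were at least 2-fold higher (Rab18 at 1.80, Rab13 at 1.78, Rab31 at 1.30 and Rab28 at 1.11) and 4 lower (Rab34 at -2.19, Rab1b at -1.78, Rab40c at -1.15 and Rab4b at -1.09). Each count is 11.4% of the Rab genes, beside 8.51% of all genes higher and 11.2% lower.

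**Figure D3:**
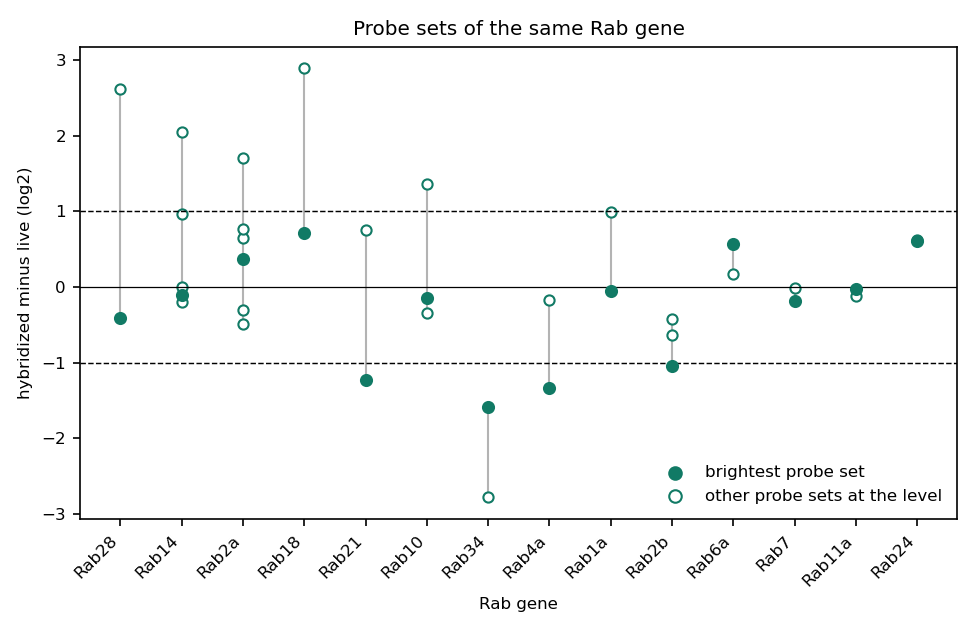
Difference between the hybridized and the live array (log2) on each probe set at the level, for the 14 Rab genes with more than 1, ordered by their range; filled points are the brightest probe set of a gene and open points the others, and dashed lines mark 2-fold. Rab28 spans 3.03 and Rab14 2.25, while Rab24 spans 0.01.

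The partners of the Rabs, in 4 lists, differed about as often as other genes. Of the 92 on the array, 69 were at the level, with a median of -0.11. Of these 69, 4 were at least 2-fold higher (5.8%, all genes 8.43%) and 11 lower (15.9%, all genes 15.4%). In either direction the share was 21.7%, beside 23.8% of all genes. Of 7 genes of lipid attachment and membrane cycling, 1 was 2-fold higher and 0 lower, with a median of -0.15. Rabggtb, the catalytic subunit of Rab geranylgeranyl transferase, read 11.28 hybridized and 9.91 live, while its partner subunit Rabggta read 8.65 and 9.45. The escort proteins Chm (8.13 and 8.54) and Chml (8.18 and 7.35) differed by less than 2-fold in opposite directions. Gdi2, a GDP dissociation inhibitor that draws Rabs off membranes, read 12.55 and 12.98 on its brightest probe set. On 6 probe sets its differences ran from -0.62 to 5.51, the last from 11.70 hybridized and 6.19 live, a wider range than that of any Rab gene.

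Of 19 exchange factors at the level, 0 were 2-fold higher (beside 8.43% of all genes) and 3 were lower (15.8%, beside 15.4%). The median was -0.06. Sbf2 read 7.82 hybridized and 10.10 live, Dennd4b 6.38 and 8.23, and Hps4, which with Hps1 activates Rab32 and Rab38, 7.03 and 8.58. Sbf2 was 0.66 higher on its other probe set, which was under the level. Rabgef1, an exchange factor for Rab5, read 10.06 and 10.11 and differed by 0.74 and -0.17 on its other probe sets. Of 17 GTPase-activating proteins, 0 were 2-fold higher (beside 8.43% of all genes) and 3 lower (17.6%, beside 15.4%). The lower genes were Tbc1d10a at -1.70, Tbc1d13 at -1.02 and Tbc1d8 at -1.0. The median was -0.11, and Tbc1d8 was 0.34 higher on its second probe set.

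Among 26 effectors at the level the median was -0.155, with 3 genes at least 2-fold higher (11.5%, beside 8.43% of all genes) and 5 lower (19.2%, beside 15.4%). Eea1, the tether that Rab5 recruits to early endosomes, read 9.22 hybridized and 6.81 live on its only probe set, a difference of 2.41. Vps16 (9.36 and 8.29) and Vps11 (6.51 and 8.04), both core subunits of the tethering complexes of endosomes and lysosomes, lay on opposite sides; Vps11 differed by -1.69 on its second probe set (6.42 and 8.11). Golga2, the Golgi matrix protein GM130 that binds Rab1, read 6.79 and 8.43. Rufy1, an early endosome protein, read 4.82 and 6.46, Rilpl1, a ciliary partner of phosphorylated Rabs, 8.39 and 9.52, and Rims2, a Rab3 partner at synapses, 7.85 and 9.0; Rims2 was 0.54 higher on its second probe set. Rufy3 was 1.04 higher. Rabep1, the Rab5 effector known as Rabaptin-5, read 8.50 and 8.62, a difference of -0.12, but was higher on its 3 other probe sets at the level, by 0.23, 0.97 and 2.09. Centred on the hybridization controls, every difference in these lists rises by 0.80.

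The Arf and Arl genes, small GTPases that act in vesicle budding and related traffic, had a median of -0.24 over 13 genes at the level. Of these, 0 were at least 2-fold higher (beside 8.43% of all genes) and 1 was lower (7.69%, beside 15.4%). Arf5 was that gene, at 4.97 hybridized and 6.72 live. With 1 array a group, no difference between the families could be tested.

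**Figure D4:**
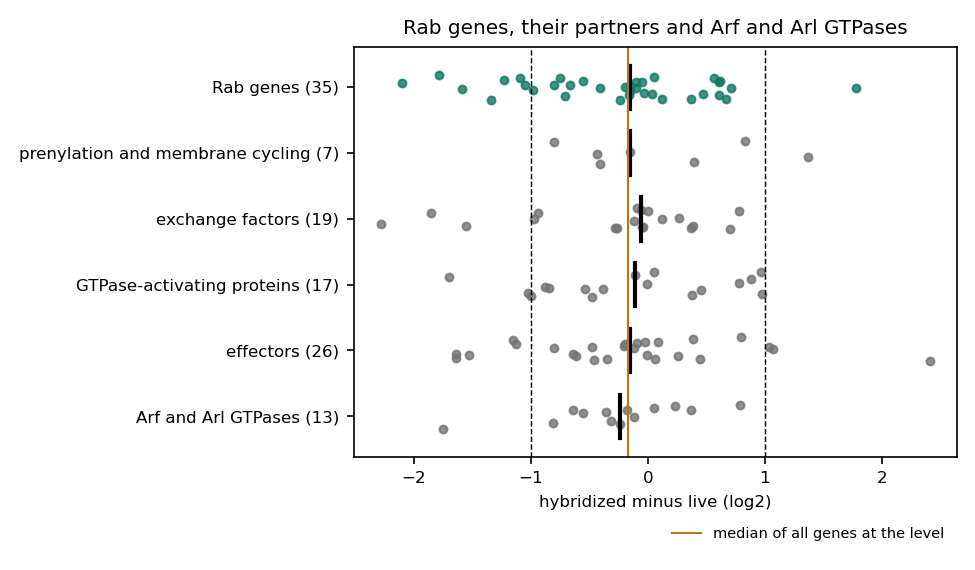
Difference between the hybridized and the live array (log2, horizontal axis) of each gene at the level in the Rab family, the 4 lists of Rab partners and the Arf and Arl GTPases, with the number of genes in brackets; black bars are medians, the orange line is the median of all genes at the level and dashed lines mark 2-fold. The medians lie between -0.24 and -0.06, around the -0.17 of all genes as deposited; centring on the hybridization controls turns them all positive.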

How the data were processed

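RNA from 1 hybridized and 1 live iPSC sample was extracted with Trizol LS, amplified and biotin-labelled with NuGEN kits, per the labels' protocols. The authors deposited 1 log2 value per probe set and array; the submitters' processing notes name GCRMA, which corrects background by probe base composition, and affy. No tool version is stated, and the set of arrays normalized together is likewise not given in the sources used here. The log base was inferred from the method and from values of 1.02 to 14.24.

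Of 22690 probe sets, 20380 have 1 gene in the platform table and were used. Each gene took its probe set with the highest mean of both arrays, and genes with a mean of at least 5 were compared; 2-fold is a difference of 1. Samples were grouped by the sample type in the labels, and no test was run. Any Rab gene could be named; of the lists, genes 2-fold apart, plus examples chosen after their values were seen. Members and lists were chosen with earlier results of these data known. The counting was tested on simulated data. Other level limits, probe set choices, centrings and normalizations and a 1.5-fold threshold were tried. Promoters (250 bases upstream) came from RefSeq, with entries for 42 of the 50 genes. Work used Python 3.11.15, numpy 2.4.6, pandas 2.3.3, statsmodels 0.14.6 (loess, span 0.3) and matplotlib 3.10.9.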

Additional observations from a re-analysis of the deposited data

How the results depend on the processing

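As deposited, 1 Rab gene was 2-fold higher (2.86%, all genes 8.43%), 7 were 2-fold lower (20%, all genes 15.4%) and the median was -0.15 (all genes -0.17). The higher count was 0 at a level limit of 7 (all genes 8.63%) and with the limit of 5 on each array (all genes 8.18%), since Rab13 then dropped out. The lower count stayed at 7 in both. It made up 25.9% at the limit of 7 (all genes 12.2%) and 20.6% with the limit on each array (all genes 13.9%). Leaving out probe sets ending in _x_at, _s_at or _a_at (probes shared by several genes or transcripts) gave 3 higher (10%, all genes 10.3%). The lower count was then 5 (16.7%, all genes 13.8%). After loess 3 were higher (8.57%, all genes 11.6%) and 5 of the 35 were lower (all genes 9.97%). At 1.5-fold 6 Rab genes were higher (17.1%, all genes 17.5%) and 12 lower (34.3%, all genes 29.9%). Averaging the probe sets of a gene gave 4 higher (11.4%, all genes 8.51%), 4 lower (11.4%, all genes 11.2%) and a median of 0.03 (all genes -0.05). It also turned Rab2b to 0.03. Centring on the median gene moved the median to 0.02 and left 1 higher (all genes 11.2%) and 5 of the 35 lower (all genes 11.5%). Centring on the hybridization controls gave 9 higher (25.7%, all genes 31.8%), 1 lower (2.86%, all genes 2.84%) and a median of 0.65 (all genes 0.63). The other settings (level limits of 4 and none, quantile normalization) left both counts within 1.5 times and the median within 0.1. Of the 8 genes 2-fold apart, Rab13 and Rab40c kept that distance under every setting that included them; Rab4a was at -0.17 without suffixed probe sets. No paired analysis was possible because each group has 1 array. Every value here rests on a single array per group and has no replicate error.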
